A study of Mus musculus with 18 samples.

Results

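The Slc22 organic ion transporters measured here were 9 genes of 12393: Slc22a6, Slc22a8, Slc22a7, Slc22a19, Slc22a22, Slc22a30, Slc22a2, Slc22a4 and Slc22a5. They were found as every probe set of the expression table that the platform annotation paired with a member's symbol alone, which gave 12 probe sets. The rule itself uses no measured value, but the family was picked with earlier results of these data known. The kidneys came from C57BL/6 mice in 6 groups of 3 arrays: TIMP3-/- UUO, TIMP3-/- sham, TIMP2-/- UUO, TIMP2-/- sham, WT UUO and WT sham. UUO is unilateral ureteral obstruction: the right ureter was tied off, and the kidney on that side was taken 3 days later. Sham mice of the same genotype had the operation without the ligature, and their kidney of the same side was taken. TIMP2-/- and TIMP3-/- mice lack tissue inhibitors of metalloproteinases. The labels give neither the alleles nor the animals' age and sex, and they call the samples biological replicates.

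Slc22 proteins carry charged metabolites, drugs and toxins across cell membranes, and in the kidney most of them sit in the proximal tubule, the segment that secretes organic anions and cations into the urine. Slc22a6 (OAT1) and Slc22a8 (OAT3) take organic anions up from the blood in exchange for dicarboxylates, and Slc22a7 (OAT2), Slc22a19 (OAT5) and Slc22a22 (OAT-PG, a prostaglandin carrier in mice) are further anion transporters. Slc22a2 (OCT2) takes up organic cations, Slc22a4 (OCTN1) carries ergothioneine and Slc22a5 (OCTN2) carnitine. Hnf4a encodes a transcription factor known to act on several of these genes.

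RefSeq promoter windows were at hand for 8 of the 9 members, all but Slc22a7. The windows (assembly GRCm38.p6, 250 bases before to 50 after the start) were searched on both strands for an HNF4 core (AAAGTCC) and a TATA box (TATAAA), letters that do not overlap one another in these windows. Both were found in 1 window, that of the second of the 2 starts of Slc22a22, on the minus strand of chromosome 15. No other window of a member held either. The 250 bases before that start of Slc22a22 (chr15:57265162-57265411) are printed because this window holds both motifs, which are in capitals.
Slc22a22: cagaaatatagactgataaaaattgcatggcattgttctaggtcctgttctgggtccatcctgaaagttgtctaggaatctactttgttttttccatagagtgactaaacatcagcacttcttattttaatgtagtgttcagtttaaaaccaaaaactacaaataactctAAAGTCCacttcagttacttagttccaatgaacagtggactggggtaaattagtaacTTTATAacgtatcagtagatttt
The HNF4 core began at position -80, counted from the start, and the TATA box letters at -23 on the other strand. Of all 32851 RefSeq windows of that length, 4.21% held the HNF4 core and 13.6% the TATA box letters. A match is a description of letters and not a site, and a window without one says nothing about the factor.

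The targeted genes were lower in their own knockouts, with Timp2 keeping some signal. Timp3 lay between 35.1 and 60.8 on the 6 TIMP3-/- arrays, against 4260 to 9040 on the WT arrays, and Timp2 between 571 and 897 on the TIMP2-/- arrays, against 971 to 4689 on the WT arrays. Of 20 listed proximal tubule markers 17 were measured, and their summed intensity lay between 292876 and 323751 on the 9 sham arrays. WT UUO 2 stood apart: 16 hepatocyte markers summed to 145313 on WT UUO 2, while WT UUO 1 and 3 had sums of 21336 and 39719, and the albumin gene Alb read 28106 there beside 72.7 and 254. On the second principal component (15.5% of the variance) WT sham 3 lay at 60.0 beside 22.3 and 19.5 for the other WT sham arrays, and TIMP3-/- UUO 2 at 40.7 beside -9.04 and -15.2 for the other TIMP3-/- UUO arrays. Values without these 3 arrays are given where leaving them out changed a result.

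After obstruction all 9 transporters were lower than after sham in each of the 3 genotypes. The fall ran from 1.83-fold for Slc22a4 in TIMP2-/- kidneys to 92.9-fold for Slc22a7 in TIMP3-/- kidneys, and with all arrays it was smallest in TIMP2-/- kidneys for each gene. Without WT UUO 2 it was smallest in WT for 3 genes, at log2 differences of -0.62 for Slc22a4, -0.93 for Slc22a5 and -2.05 for Slc22a8. A lower level in whole kidney can come from fewer cells that make the transcript or from less of it per cell, and these cannot be told apart here. The question behind the comparison was how UUO changes the kidney's transcripts in each genotype.

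Slc22a7, the anion transporter OAT2, changed most. In TIMP3-/- kidneys its intensity was 75.4, 56.2 and 85.8 after UUO, against 5890, 7213 and 6855 after sham. TIMP2-/- kidneys had 1005, 1080 and 2823 after UUO, against 8688, 9696 and 9376 after sham. WT kidneys had 502, 233 and 2370 after UUO, against 7289, 8684 and 7608 after sham. The groups did not overlap in any genotype, and the TIMP3-/- UUO values were brighter than only 24.7% to 31.8% of the probe sets on their arrays. At that brightness the size of the fall is inexact. The log2 difference was -6.54 ± 0.58 in TIMP3-/- (SE, limma, adjusted p = 9.58e-07), -2.67 ± 0.58 in TIMP2-/- (adjusted p = 0.00307) and -3.59 ± 0.58 in WT (adjusted p = 0.000241).

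**Figure D1:**
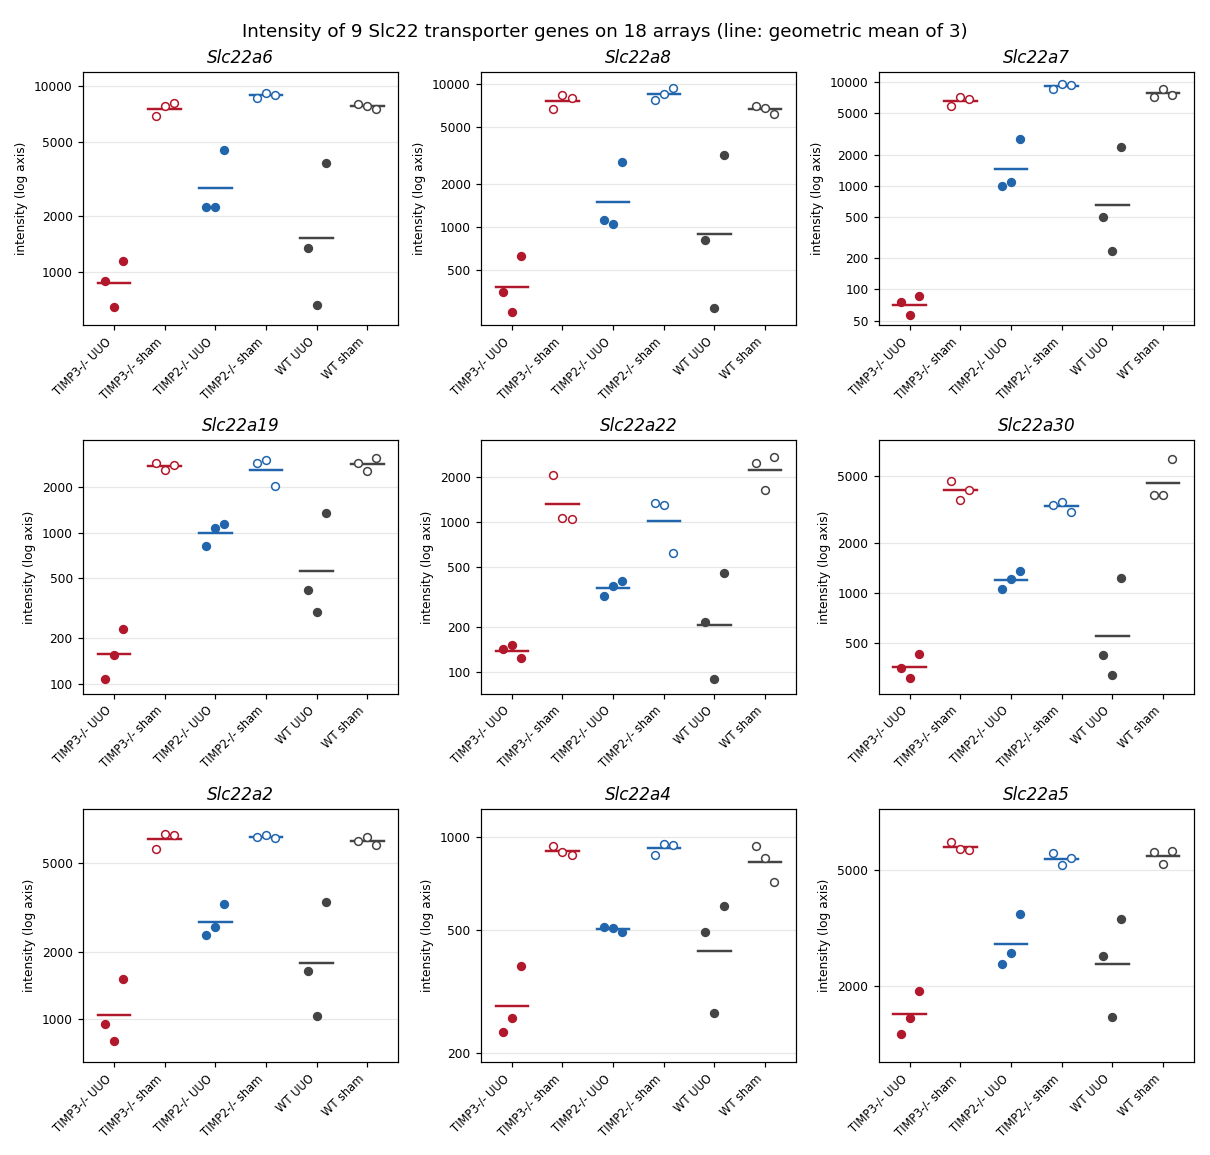
Intensity (log axis, arbitrary array units) of the 9 Slc22 genes on the 18 arrays, by group; filled points are UUO and open points sham arrays, in order of replicate number, and the line is the geometric mean of 3. In each panel and genotype the 3 UUO points lie below the 3 sham points, and Slc22a7 in TIMP3-/- UUO kidneys lies between 56.2 and 85.8.

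The transporters for uptake of organic anions from the blood, Slc22a6 and Slc22a8, fell in each genotype. Slc22a6 measured 890.4, 643 and 1145 in TIMP3-/- UUO kidneys, against 6879, 7782 and 8072 in TIMP3-/- sham kidneys. In TIMP2-/- mice it was 2235, 2238 and 4542 after UUO, against 8670, 9175 and 9003 after sham. In WT mice it was 1346, 663 and 3869 after UUO, against 8007, 7807 and 7561 after sham. Every UUO array was below every sham array, while the sham arrays of the 3 genotypes lay close together. Its log2 difference was -3.12 ± 0.44 in TIMP3-/-, -1.66 ± 0.44 in TIMP2-/- and -2.37 ± 0.44 in WT, with limma adjusted p of 3.83e-05, 0.01 and 0.000868.

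Slc22a8 read 353, 258 and 627 in TIMP3-/- UUO kidneys, against 6780, 8421 and 8046 in TIMP3-/- sham kidneys. TIMP2-/- mice showed 1120, 1054 and 2890 after UUO, against 7843, 8575 and 9414 after sham. WT mice showed 817, 275 and 3209 after UUO, against 7045, 6814 and 6257 after sham. Again no UUO array reached a sham array, and WT UUO 3 and TIMP2-/- UUO 3 were the highest of the obstructed kidneys. The log2 differences were -4.32 ± 0.62, -2.51 ± 0.62 and -2.90 ± 0.62 in TIMP3-/-, TIMP2-/- and WT (limma, adjusted p = 3.96e-05, 0.00633 and 0.00218). The second probe sets of Slc22a6 and Slc22a8 also fell in each genotype, with log2 differences of -2.97, -1.64 and -2.56 for Slc22a6 and -3.54, -2.14 and -2.16 for Slc22a8 in the same order of genotypes.

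Slc22a19 (OAT5), which in mouse kidney carries sulfated steroids, fell to 107, 155 and 232 in TIMP3-/- UUO kidneys, against 2893, 2619 and 2826 in TIMP3-/- sham kidneys. TIMP2-/- kidneys held 811, 1075 and 1141 after UUO, against 2875, 3021 and 2023 after sham. In WT kidneys the values were 419, 300.5 and 1356 after UUO, against 2881, 2578 and 3140 after sham. The groups were separate in each genotype, at log2 differences of -4.15 ± 0.40 in TIMP3-/-, -1.38 ± 0.40 in TIMP2-/- and -2.36 ± 0.40 in WT (limma, adjusted p = 2.07e-06, 0.0162 and 0.000412).

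The prostaglandin carrier Slc22a22 had 142, 150.5 and 124 in TIMP3-/- UUO kidneys, against 2068, 1070.0 and 1063 in TIMP3-/- sham kidneys. It had 319.9, 375 and 404 in TIMP2-/- UUO kidneys, against 1343, 1308 and 620.5 in TIMP2-/- sham kidneys. It had 216, 89.1 and 457 in WT UUO kidneys, against 2505, 1637 and 2725 in WT sham kidneys. No groups overlapped, although single sham arrays stood apart, at 2068 in TIMP3-/- and 620.5 in TIMP2-/- mice. The log2 difference was -3.26 ± 0.45 in TIMP3-/-, -1.50 ± 0.45 in TIMP2-/- and -3.44 ± 0.45 in WT, so that here WT fell about as far as TIMP3-/- (limma, adjusted p = 3.26e-05, 0.019 and 4.62e-05).

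Slc22a30 gave 355, 312 and 433 in TIMP3-/- UUO kidneys, against 4695, 3608 and 4160.0 in TIMP3-/- sham kidneys. In TIMP2-/- kidneys it gave 1058, 1221 and 1349 after UUO, against 3360.0, 3483 and 3064 after sham. In WT kidneys it gave 426, 324 and 1236 after UUO, against 3834, 3876 and 6294 after sham. All 3 pairs of groups were separate, and WT sham 3 was the highest array. Log2 differences were -3.51 ± 0.35, -1.45 ± 0.35 and -3.03 ± 0.35 in TIMP3-/-, TIMP2-/- and WT (limma, adjusted p = 2.42e-06, 0.00581 and 1.33e-05). A further probe set that the annotation pairs with Slc22a30 together with Slc22a29 was left out.

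The organic cation transporter Slc22a2 measured 946, 798 and 1513 in TIMP3-/- UUO kidneys, against 5788, 6723 and 6669 in TIMP3-/- sham kidneys. TIMP2-/- kidneys measured 2390.0, 2572 and 3288 after UUO, against 6534, 6672 and 6478 after sham. WT kidneys measured 1640.0, 1035 and 3334 after UUO, against 6294, 6557 and 5989 after sham. The sham arrays of Slc22a2 lay within 5788 to 6723 whatever the genotype, and the UUO arrays all lay at or below 3334. The log2 difference was -2.61 ± 0.31 in TIMP3-/-, -1.27 ± 0.31 in TIMP2-/- and -1.82 ± 0.31 in WT (limma, adjusted p = 8.45e-06, 0.0062 and 0.0004).

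The ergothioneine and carnitine carriers fell least of the members in each genotype. Slc22a4 lay between 234 and 382 in TIMP3-/- UUO kidneys, against 877 to 933 in TIMP3-/- sham kidneys. TIMP2-/- kidneys had 492 to 512 after UUO, against 871 to 947 after sham, and WT kidneys had 271 to 596 after UUO, against 714 to 934 after sham. Its log2 differences were -1.66 ± 0.23, -0.87 ± 0.23 and -0.95 ± 0.23 in TIMP3-/-, TIMP2-/- and WT. Slc22a5 lay between 1370 and 1934 in TIMP3-/- UUO kidneys, against 5870 to 6251 in TIMP3-/- sham kidneys, with 2379 to 3549 against 5199 to 5740 in TIMP2-/- and 1573 to 3394 against 5261 to 5831 in WT. The carnitine carrier's log2 differences were -1.91 ± 0.22, -0.97 ± 0.22 and -1.23 ± 0.22, and its second probe set stood at -2.37, -1.27 and -1.45. Both genes passed in each genotype, and none of their groups overlapped.

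All 9 members passed in TIMP3-/- kidneys, where 38.8% of all genes were called lower and the groups of 39.5% did not overlap in that direction. All 9 passed in TIMP2-/- kidneys, where 22% were called lower and 33.2% did not overlap. All 9 passed in WT kidneys, where 16.2% were called lower and 26.7% did not overlap. The median log2 difference of the 9 was -3.26 in TIMP3-/-, -1.45 in TIMP2-/- and -2.37 in WT, beside -0.19, -0.12 and -0.09 over all genes tested. Slc22a7 had the lowest difference of the 12393 genes in TIMP3-/- kidneys and Slc22a4, with the smallest fall of the members there, stood at place 475.

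**Figure D2:**
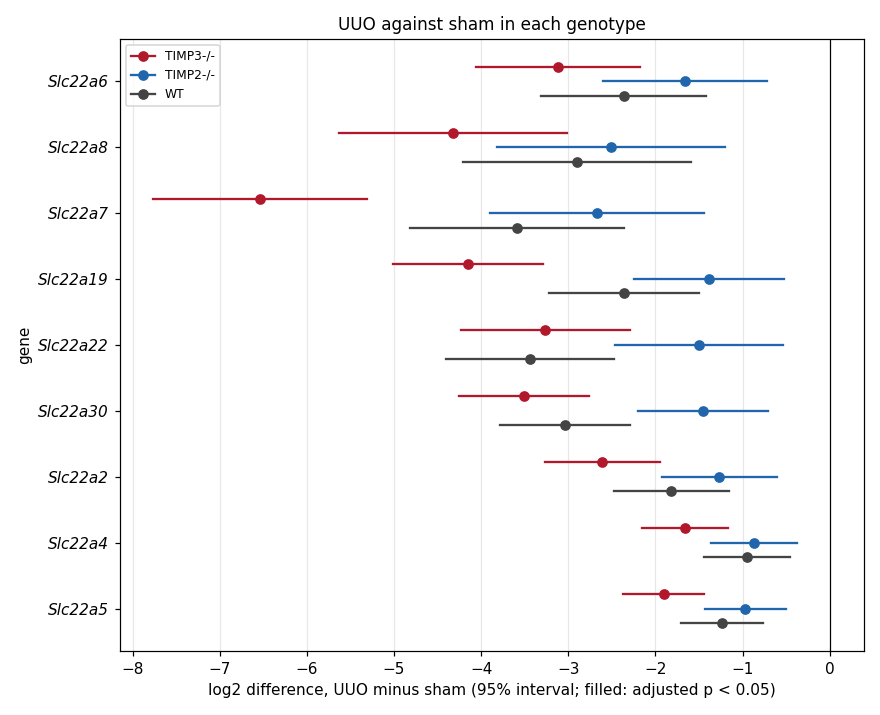
Log2 difference between UUO and sham (points, with 95% intervals) of each Slc22 gene in TIMP3-/-, TIMP2-/- and WT kidneys; a filled point passed at an adjusted p under 0.05. All 27 points are filled and negative, and the TIMP2-/- point is nearest to 0 for each gene; without WT UUO 2 the WT value is nearer for Slc22a4 (-0.62), Slc22a5 (-0.93) and Slc22a8 (-2.05).

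In TIMP2-/- mice some of these calls rested on individual arrays. Slc22a22 missed the threshold without TIMP2-/- UUO 1 (-1.40, adjusted p = 0.069), without TIMP2-/- UUO 2 (0.0553), without TIMP2-/- sham 1 (0.0659) or without TIMP2-/- sham 2 (0.0671), all by limma. Slc22a19 missed it without TIMP2-/- UUO 1 (-1.23, limma adjusted p = 0.0694) or without TIMP2-/- sham 2 (0.0533), and Slc22a6 without TIMP2-/- UUO 2 (-1.49, 0.0503). In WT kidneys each member passed whichever array was left out, but sizes moved. Without WT UUO 2 the log2 difference was -2.85 for Slc22a7, -2.05 for Slc22a8, -2.83 for Slc22a22 and -1.77 for Slc22a6. Without WT UUO 3 it was -4.52 for Slc22a7, -3.82 for Slc22a8, -3.04 for Slc22a6 and -3.01 for Slc22a19. WT UUO 2 was the lowest and WT UUO 3 the highest of the WT UUO arrays in 9 of 9 members. The proximal tubule marker sum was 103653 on WT UUO 2, 143532 on WT UUO 1 and 209930 on WT UUO 3, and its part in these values was not tested.

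Markers of the proximal tubule moved with the transporters. The summed intensity of the 17 markers was 94116 to 117366 in TIMP3-/- UUO kidneys, 169562 to 219574 in TIMP2-/- UUO kidneys and 103653 to 209930 in WT UUO kidneys, all below the sham range. Lower calls numbered 16 of 17 in TIMP3-/-, 14 in TIMP2-/- and 16 in WT (14 without WT UUO 2), and the sulfate carrier Slc13a1 was higher in TIMP2-/- by 0.76 ± 0.16, with median log2 differences of -2.23, -0.96 and -1.48. Slc7a13 (-3.51 ± 0.44) and the glucose carrier Slc5a2 (-3.34 ± 0.33) changed most in TIMP3-/- kidneys. Immune cell markers moved as well: 6 of 7 were higher in TIMP3-/-, 5 in TIMP2-/- and 6 in WT. No share of all genes called higher is given beside these counts. The summed intensity of the immune markers was 27385 to 43784 in TIMP3-/- UUO kidneys, against 5203 to 6210 in TIMP3-/- sham kidneys. It was 21416 to 22833 after UUO, against 5241 to 6318 after sham, in TIMP2-/- mice, and 18606 to 37666 after UUO, against 3811 to 5463 after sham, in WT mice. The part of either marker list in the result was not tested. Set against the median log2 intensity of the proximal tubule markers on the same array, the members split into different behaviours. The mean log2 difference of Slc22a7 from that median was -5.83 in TIMP3-/- UUO kidneys, against -1.04 in TIMP3-/- sham kidneys. For Slc22a8 the means were -3.40 and -0.82, and for Slc22a6 they were -2.23 and -0.85. For Slc22a4 they were -3.83 and -3.92, and for Slc22a5 -1.34 and -1.18, so that these 2 genes kept nearly their distance from that median level. Their own log2 differences in TIMP3-/- kidneys, -1.66 and -1.91, were smaller falls than the markers' median difference of -2.23. In WT kidneys the mean of Slc22a4 from the median level was -4.01 after UUO, against -4.41 after sham.

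**Figure D3:**
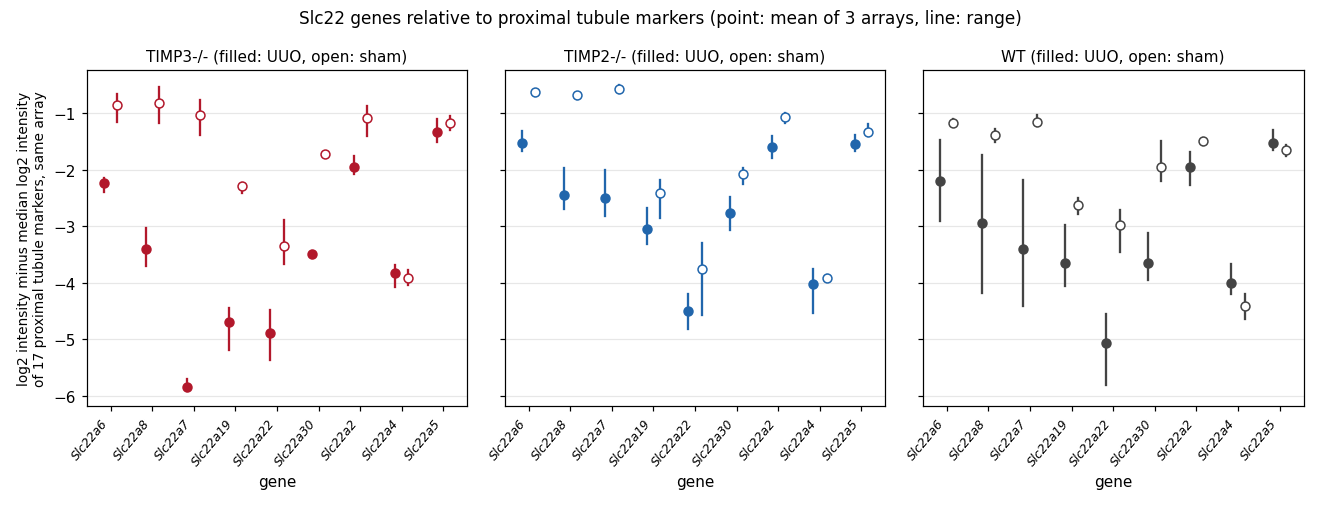
Log2 intensity of each Slc22 gene minus the median log2 intensity of 17 proximal tubule markers on the same array, in TIMP3-/-, TIMP2-/- and WT kidneys; points are means of 3 arrays (filled UUO, open sham) and lines their range. For Slc22a7 in TIMP3-/- kidneys the mean is -5.83 after UUO and -1.04 after sham, while for Slc22a4 it is -3.83 and -3.92.

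The other genes of the family on the array mostly fell as well. Of 9 other Slc22 genes, 8 fell in TIMP3-/-, 8 in TIMP2-/- and 7 in WT kidneys, with median log2 differences of -2.03, -0.98 and -1.59. Slc22a13 (-3.82 ± 0.45), Slc22a18 (-3.29 ± 0.39), Slc22a29 (-2.45 ± 0.34) and the urate carrier Slc22a12 (-2.14 ± 0.34) changed most in TIMP3-/- kidneys. Slc22a29 read 14.9, 20.1 and 23.1 there after UUO, under the 25th percentile of every array (56.8 to 64.2), so that the size of its fall is inexact. The WT count was 6 of 9 without WT UUO 2. Slc22a21, a carnitine transporter in mice, was higher in TIMP3-/- kidneys by 0.40 ± 0.17 (limma, adjusted p = 0.0482). Its readings in TIMP3-/- were a dim 65.2, 76 and 72.9 after UUO, against 57.1, 55.2 and 49.5 after sham. Slc22a21 is named after its values were seen. It did not pass once WT UUO 2 was left out of the shared estimate of spread.

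Of 21 genes for transporters and a scaffold that work beside the Slc22 proteins, 16 were measured. In TIMP3-/- kidneys 12 fell and 2 rose, in TIMP2-/- kidneys 11 fell and 2 rose, and in WT kidneys 12 fell and 2 rose. The dicarboxylate carriers Slc13a2 (-2.66 ± 0.33) and Slc13a3 (-2.60 ± 0.34), the anion carrier Slc17a3 (-2.33 ± 0.28) and the scaffold gene Pdzk1 (-1.96 ± 0.23) changed most in TIMP3-/- kidneys. In TIMP2-/- kidneys the largest were Abcb1b (1.72 ± 0.29), an efflux pump for drugs, Abcc6 (-1.48 ± 0.24), Slc13a2 (-1.41 ± 0.33) and Slco1a1 (-1.40 ± 0.48). In WT kidneys they were Slco1a1 (-2.93 ± 0.48), Slco1a6 (-2.50 ± 0.56), Slc17a3 (-1.93 ± 0.28) and Slc13a3 (-1.48 ± 0.34). The WT counts were 11 lower and 1 higher without WT UUO 2. The genes that rose in each genotype were Abcb1b (1.42, 1.72 and 0.83 in TIMP3-/-, TIMP2-/- and WT) and the prostaglandin transporter gene Slco2a1 (0.50, 0.41 and 0.81). Abcb1b stood at 0.66 in WT without WT UUO 2 and did not pass (limma, adjusted p = 0.153).

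Of the listed regulators of proximal tubule transporter genes, 9 were measured. In TIMP3-/- kidneys 8 fell and 1 rose, in TIMP2-/- kidneys 4 fell, and in WT kidneys 5 fell and 1 rose. Ppara, the receptor that drives fatty acid oxidation genes, fell in each genotype, with log2 differences of -2.71, -1.53 and -1.77 in TIMP3-/-, TIMP2-/- and WT kidneys. The bile acid receptor gene Nr1h4 stood at -2.05, -0.88 and -1.15, and Hnf4a, the factor of the HNF4 core printed above, at -1.84 and -0.87 in TIMP3-/- and TIMP2-/-, while in WT it dropped by 1.00. The gene that rose was Pparg, by 1.23 ± 0.43 in TIMP3-/- and 1.36 ± 0.43 in WT kidneys. In WT it read 459 on WT UUO 2, beside 152 and 127 on the other obstructed kidneys, and without that array its difference was 0.78 and did not pass (limma, adjusted p = 0.144), leaving 4 regulators lower and 0 higher. Over the same comparisons the fat cell markers also moved: 4 of 5 measured rose in TIMP3-/-, 1 of 5 in TIMP2-/- and 4 of 5 in WT kidneys (2 of 5 without WT UUO 2). No share of all genes called higher is given beside these counts either, and the part of the fat cell markers in the Pparg values was not tested.

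The genotypes were then compared with each other after obstruction. In mean log2 level the order was the same for all 9 transporters, TIMP3-/- lowest, WT between and TIMP2-/- highest. Without WT UUO 2 the order of TIMP2-/- and WT turned for 3 genes, Slc22a8, Slc22a4 and Slc22a5. Between neighbours in that order few differences passed the threshold. Only Slc22a7 passed between TIMP3-/- and WT, and no member between TIMP2-/- and WT, while 7 of 9 passed between TIMP2-/- and TIMP3-/-. By limma the unadjusted p was under 0.05 for 5, 1 and 9 members in these 3 comparisons. The comparisons share arrays, so their values are not independent of each other.

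Between TIMP3-/- and WT after UUO, 1 of 9 members was called, against 0.153% of all genes called lower. Slc22a7, at 75.4, 56.2 and 85.8 in TIMP3-/- UUO kidneys against 502, 233 and 2370 in WT UUO kidneys, was 9.13-fold lower (log2 difference -3.19 ± 0.58, limma, adjusted p = 0.0319). Slc22a19 was also separate between the groups, at -1.82 ± 0.40, and did not pass (limma, adjusted p = 0.0627), and the groups of 6.41% of all genes were separate in that direction. The other 7 were between -1.22 (Slc22a8) and -0.57 (Slc22a5), with overlapping groups and adjusted p from 0.18 to 0.464. The call of Slc22a7 was narrow: the limma adjusted p was 0.0963 without TIMP3-/- UUO 1, 0.183 without TIMP3-/- UUO 2 and 0.523 with only the arrays compared. It also lay between 0.0505 and 0.0556 when WT sham 2, TIMP2-/- sham 2, TIMP3-/- sham 2 or TIMP3-/- sham 3 was left out of the shared estimate of spread. Without WT UUO 2 the difference was -3.93 (adjusted p = 0.00347) and 7 of 9 members passed. Without WT UUO 3 it was -2.26 (adjusted p = 0.0398), and without TIMP3-/- UUO 3 a total of 4 members passed. Leaving out WT UUO 2, WT sham 3 and TIMP3-/- UUO 2 together also gave 4, namely Slc22a7, Slc22a19, Slc22a4 and Slc22a5. The share of 0.153% is for all arrays, and none is given beside the counts with arrays left out.

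Between TIMP2-/- and WT after UUO all 9 differences were positive with all arrays, and 0 of 9 passed by limma, with 0.0161% of all genes called higher. The smallest adjusted p was 0.999, and 1 member, Slc22a30, had an unadjusted p under 0.05. Slc22a30 stood at 1058, 1221 and 1349 in TIMP2-/- UUO kidneys against 426, 324 and 1236 in WT UUO kidneys, a log2 difference of 1.12 with a 95% interval of 0.37 to 1.87. The groups overlapped in each of the 9 genes, while those of 4.87% of all genes were separate and higher in TIMP2-/-, and WT UUO 3 lay among or above the TIMP2-/- arrays. Without WT UUO 3 the difference of Slc22a30 was 1.70 (limma, adjusted p = 0.0066). Without WT UUO 2 it was 0.73, that of Slc22a7 was 0.41 in place of 1.16, and those of Slc22a8, Slc22a4 and Slc22a5 were -0.10, -0.10 and -0.07, with 0 of 9 passing. The 95% intervals of the other 8 all held 0, with bounds as low as -0.56 (Slc22a8) and as high as 2.38 (Slc22a7).

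Between TIMP2-/- and TIMP3-/- after UUO, 7 of 9 were higher in TIMP2-/-, against 6.09% of all genes, and the groups of all 9 were separate, against 21.1% of all genes. Slc22a7 led with a log2 difference of 4.35 ± 0.58 (limma, adjusted p = 0.00237), followed by Slc22a19 at 2.67 ± 0.40 (0.00584). Next came Slc22a30 at 1.73 ± 0.35, Slc22a6 at 1.71 ± 0.44, Slc22a2 at 1.38 ± 0.31, Slc22a4 at 0.82 ± 0.23 and Slc22a5 at 0.80 ± 0.22, with adjusted p from 0.018 to 0.0434. Slc22a8, at 1.97 ± 0.62, and Slc22a22, at 1.40 ± 0.45, did not pass (limma, adjusted p = 0.0587 and 0.0656). Both did with a replicate block and only the arrays compared (0.00807 and 0.0123). That setting was chosen after seeing the data, and whether replicate numbers pair these arrays is unsettled. Slc22a7 and Slc22a19 passed under every alternative that gave them a value. The other 5 did not. The count of members that passed was 4 without TIMP2-/- UUO 1, 3 without TIMP2-/- UUO 2, and 2 without TIMP2-/- UUO 3, TIMP3-/- UUO 1 or TIMP3-/- UUO 2. Slc22a4 and Slc22a5 also missed the threshold, at adjusted p up to 0.06 and 0.056, when WT UUO 1 or one of most sham arrays was left out of the shared estimate of spread, and without WT UUO 2 or without WT UUO 3 all 9 passed. For these counts with arrays left out no share of all genes is given, and that of 6.09% is for all arrays. The median of the members was 1.71, beside 0.11 over all genes, and that of the 17 proximal tubule markers was 1.05, of which 14 were higher.

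**Figure D4:**
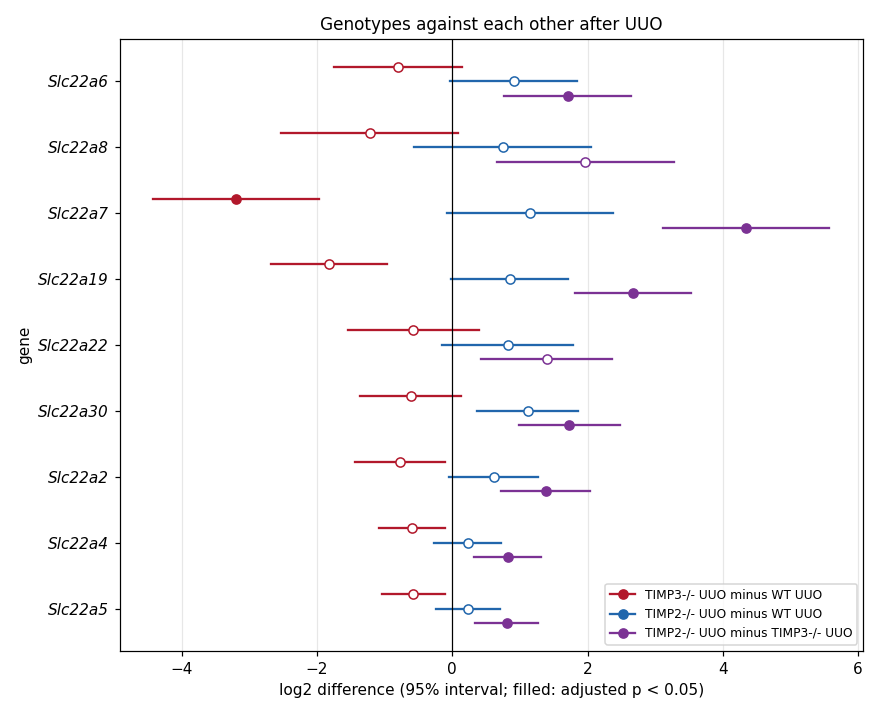
Log2 difference between genotypes after UUO (points, with 95% intervals) for each Slc22 gene; filled points passed at an adjusted p under 0.05. With all arrays TIMP3-/- minus WT lies below 0 and TIMP2-/- minus WT above 0 for all 9 genes, the second not without WT UUO 2 (3 genes turn); filled points are Slc22a7 in the first and 7 genes in TIMP2-/- minus TIMP3-/-.

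The lists beside the members were counted in the same comparisons. Of the other Slc22 genes, 5 of 9 were higher in TIMP2-/- than in TIMP3-/- kidneys, led by Slc22a13 (1.97 ± 0.45), Slc22a18 (1.94 ± 0.39), Slc22a12 (1.25 ± 0.34) and Slc22a26 (1.08 ± 0.26), and Slc22a21 was lower (-0.66 ± 0.17). Among the transport partners 7 of 16 were higher, led by Slc13a3 (1.63 ± 0.34), Slc13a2 (1.31 ± 0.33), Slc17a3 (1.29 ± 0.28) and Pdzk1 (1.20 ± 0.23). Among the regulators 4 of 9 were higher, Ppara (1.45 ± 0.24), Nr1h4 (1.43 ± 0.26), Hnf4a (1.00 ± 0.20) and Nr1i2 (0.76 ± 0.22). Between TIMP3-/- and WT after UUO the only gene of these lists that passed was Ppara, at -1.28 ± 0.24 (limma, adjusted p = 0.0375). More passed without WT UUO 2, 4 other Slc22 genes, 6 partners and 4 regulators being lower and 1 other Slc22 gene and 1 partner higher. For that setting the share of all genes called is not given.

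The difference between genotypes in the UUO response itself was tested with an interaction term. By limma 0 of 9 members passed in TIMP3-/- minus WT, where 0% of all genes did so in either direction, and the unadjusted p was under 0.05 for 4. In TIMP2-/- minus WT 0 passed and 2 had such a p, again with 0% of all genes called. In TIMP2-/- minus TIMP3-/- 0 passed and 8 had such a p, with 0.00807% of all genes called. The largest values were those of Slc22a7, at -2.95 ± 0.82 for TIMP3-/- minus WT (adjusted p = 0.163) and 3.87 ± 0.82 for TIMP2-/- minus TIMP3-/- (limma, adjusted p = 0.207). For Slc22a22 the value for TIMP2-/- minus WT was 1.94 ± 0.64 (limma, adjusted p = 0.518). Weighting the arrays by their quality changed the counts of members that passed to 6, 2 and 9. The shares of all genes above are for the fit without weights, and none is given beside the weighted counts. Without WT UUO 2 the counts stayed at 0. The sign then changed for 1 member in TIMP3-/- minus WT and for 3 in TIMP2-/- minus WT.

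In sham kidneys 0 of 9 members passed by limma in any comparison of genotypes. The share of all genes called in either direction was 0.0161% in TIMP3-/- against WT, 0.00807% in TIMP2-/- against WT and 0.0403% in TIMP2-/- against TIMP3-/-, and the members with an unadjusted p under 0.05 numbered 0, 1 and 0. That 1 was Slc22a22, at 1343, 1308 and 620.5 in TIMP2-/- sham kidneys against 2505, 1637 and 2725 in WT sham kidneys. The groups did not overlap, the log2 difference was -1.12 ± 0.45 with a 95% interval of -2.09 to -0.15, and the limma adjusted p was 0.148. Slc22a30 was separate as well, at -0.46 ± 0.35 (limma, adjusted p = 0.372), and the groups of 14.9% of all genes were separate in that direction. In the other direction 3 members were separate in TIMP2-/- against WT sham kidneys, Slc22a6, Slc22a8 and Slc22a7, beside 29.9% of all genes. The second probe set of Slc22a6 overlapped there, at 1268, 988.2 and 807.1 against 994.5, 1104 and 1111, while that of Slc22a8 was separate too. Without WT sham 3, the highest sham array for Slc22a22 and Slc22a30, their differences were -0.98 and -0.23. Without TIMP2-/- sham 3 that of Slc22a22 was -0.75 (limma, adjusted p = 0.486).

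Among themselves the members followed profiles of different depth. Profiles were compared as the root mean square difference of the 6 group means, on the log2 scale and centred on each gene's own mean. Slc22a4 and Slc22a5, which lie on chromosome 11 with Slc22a21 between them, were closest at 0.12, and Slc22a7 and Slc22a4 were farthest apart at 1.88. Among 12375 genes outside the family, the closest to Slc22a7 was Egf, a distal nephron transcript, at 0.52, which was still far. For Slc22a4 it was Ddt at 0.02, for Slc22a5 Pcbd1 at 0.06, for Slc22a2 Pecr at 0.06 with the endocytic receptor gene Cubn next at 0.08, and for Slc22a6 the esterase gene Ces1f at 0.11. For Slc22a8 it was Aspdh at 0.13, for Slc22a30 Eci3 at 0.20, for Slc22a22 F13b and for Slc22a19 Haao, both at 0.24. These are descriptions over 6 groups whose main contrast is UUO against sham.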

How the data were processed

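Total RNA (integrity number above 7, per the labels' protocols) was hybridised to Affymetrix Mouse430A_2 arrays, 3 per group. The deposited intensity values, 1 per probe set and array on a linear scale, were made by the authors with RMA per the submitters' processing notes; its version and the step to a linear scale are not given in the sources used here. Array medians lay between 202 and 248, and a shift of all transcripts alike cannot be seen in such values. The number of arrays limits the precision.

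Control probe sets (64 of 22690) were left out, and 20380 probe sets had 1 gene symbol. The brightest probe set stood for a gene, giving 12393 genes. Values were taken to log2 with no pseudocount, and 6 group means over 18 arrays were fitted with limma 3.58.1 (R 4.3.3), with Benjamini-Hochberg adjustment over all genes for each of 12 comparisons and a threshold of 0.05. Second probe sets came from the same model over 22626 probe sets. An exact permutation test of 3 against 3 arrays cannot go below 0.1 and was not used. The fit was tested on simulated data.

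All members are reported, with log2 differences of the 3 probe-level duplicates for UUO against sham only. From each list at most 4 genes per comparison are given, the largest that passed. The members and lists were chosen with earlier results of these data known. Alternatives covered the fit, the scaling, the probe sets, weights and left-out arrays; the lists without doubted arrays were added after seeing the data. One further motif that was searched is not reported here. Promoter sequences and gene order are from RefSeq (GRCm38.p6).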

Additional observations from a re-analysis of the deposited data

How the results depend on the processing

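Across 108 differences of the 9 Slc22 genes and 32 alternatives, 3444 values were obtained, of which 3280 kept their sign and side of the threshold, 61 no longer passed and 63 newly passed. The sign changed in 40 values that passed neither before nor after, 0 of them for UUO against sham. The counts for UUO against sham stayed between 7 and 9 in each genotype, and those between sham groups at 0. For TIMP3-/- against WT after UUO the count of 1 became 6 with array weights, 4 without WT UUO 2, WT sham 3 and TIMP3-/- UUO 2, and 0 with only the arrays compared, with or without a replicate block, or with suffixed probe sets left out, which removes Slc22a7. With each array left out in turn it ran from 0 to 7. For TIMP2-/- against WT after UUO the count of 0 became 2 with array weights and ran from 0 to 1 with arrays left out. For TIMP2-/- against TIMP3-/- after UUO the count of 7 became 4 with only the arrays compared, 9 with a replicate block added to that, and ran from 2 to 9 with arrays left out. For the UUO response, array weights gave 6 for TIMP3-/- minus WT (0 to 2 with arrays left out), 2 for TIMP2-/- minus WT (0 to 1) and 9 for TIMP2-/- minus TIMP3-/- (0 to 3), and the last became 3 with only the arrays compared, with or without the replicate block. Beside the counts under alternatives, left-out arrays included, no share of all genes called is given. The causes were not tested. Whether replicate numbers pair the samples is unsettled: 24 of 45 same-numbered pairs had a correlation of deviations above 0.1 (median 0.13), as had 39 of 90 others (median -0.10). All 3 pairs were above 0.1 for TIMP2-/- UUO with WT UUO and with TIMP2-/- sham, where the block changed no count, but not in the other comparisons. With the replicate block over all 18 arrays the count was 8 for TIMP2-/- against TIMP3-/- after UUO and unchanged elsewhere. Centring arrays on their medians moved the median of all genes to -0.42, -0.27 and -0.22 for UUO against sham in TIMP3-/-, TIMP2-/- and WT, and all 9 genes passed in each. The block fitted with only the arrays compared was chosen after seeing the data.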

Other observations

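Several of the transporter genes are neighbours in the RefSeq gene order of GRCm38.p6. On chromosome 19 Slc22a29, Slc22a30, Slc22a8 and Slc22a6 follow each other, and Slc22a19 lies beside Slc22a26. They are given here for their position, and all 6 passed as lower in TIMP3-/- kidneys, with log2 differences between UUO and sham of -2.45 (Slc22a29), -3.51 (Slc22a30), -4.32 (Slc22a8), -3.12 (Slc22a6), -4.15 (Slc22a19) and -2.03 (Slc22a26). Slc22a29 lay under the 25th percentile of every array after UUO, so its value is inexact. On chromosome 11 Slc22a21 lies between Slc22a5 and Slc22a4. The values in TIMP3-/- kidneys there were -1.91 for Slc22a5, 0.40 for Slc22a21 and -1.66 for Slc22a4, so that the gene in the middle had the opposite sign. Slc22a21 was dim, and its rise did not pass once WT UUO 2 was left out of the shared estimate of spread. In TIMP2-/- and WT kidneys Slc22a21 stood at -0.21 and 0.15 and did not pass.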
